A study of Mus musculus with 2 samples.

Results

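The transcripts of 10 genes of the AP-1 family were examined in lung group 2 innate lymphoid cells (ILC2s), tissue-resident lymphocytes that release type 2 cytokines without an antigen receptor. The genes were Fos, Fosb, Fosl1, Fosl2, Jun, Junb, Jund, Batf, Atf3 and Maff. They were chosen by name from the family, with earlier results of these data known. All 10 of them were among the 32285 genes counted in both libraries. Cells were sorted alive from mouse lung as Lineage- CD90.2+ ST2+ Sca-1+, and 1 library each was made by droplet scRNA-Seq from WT and Pac1-KO (Pac1-/-) mice. Per the methods of the study, the mice were 6 to 8 weeks old and 4 to 5 mice per genotype were pooled, so no cell could be assigned to an animal. PAC1 is a phosphatase encoded by Dusp2 that acts on MAP kinases, and the Pac1-/- mice lacked it in all tissues, not in ILC2s alone. No allergen or cytokine treatment of these mice was named in the labels. With 1 library per genotype no difference had a replicate check, no p-value was computed, and every 95% interval given here covers counting error only.

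AP-1 is a dimer of basic leucine zipper proteins that binds short DNA sites. Fos proteins (FOS, FOSB, FOSL1, FOSL2) cannot pair with one another and join a Jun protein (JUN, JUNB, JUND), whereas Jun proteins also pair among themselves. ATF3, BATF and the small Maf protein MAFF belong to related branches. ATF3 pairs with Jun proteins, BATF pairs with Jun proteins and lacks a transactivation domain, and MAFF also lacks one and pairs with CNC and Fos factors. Several of these genes, above all Fos, Fosb, Jun, Junb and Atf3, are immediate-early genes, transcribed within minutes of a stimulus through MAP kinases without new protein synthesis, and enzymatic dissociation of tissue is known to induce them. In lymphocytes AP-1 sites, alone or beside NFAT or IRF sites, are found at cytokine genes such as Il2, Il5 and Il13.

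The stretches before the start sites of Jun, Fos, Fosl2 and Atf3 are shown because the comparisons by heat shock, Il5 and Il2 status described below turn on these genes. Each run holds the 250 bases upstream of the RefSeq start in GRCm38.p6, 5′ to 3′ on the strand of the gene, at chr4:95052223-95052472 (minus) for Jun, chr12:85473640-85473889 (plus) for Fos, chr5:32136222-32136471 (plus) for Fosl2 and chr1:191183334-191183583 (minus) for Atf3. Capitals mark matches, on either strand, to the AP-1 site TGANTCA, the AP-1-like site TGACATCA, the cAMP response element TGACGTCA or its core TGACG, the CArG box, and the inverted heat shock units GAANNTTC and TTCNNGAA.
Jun: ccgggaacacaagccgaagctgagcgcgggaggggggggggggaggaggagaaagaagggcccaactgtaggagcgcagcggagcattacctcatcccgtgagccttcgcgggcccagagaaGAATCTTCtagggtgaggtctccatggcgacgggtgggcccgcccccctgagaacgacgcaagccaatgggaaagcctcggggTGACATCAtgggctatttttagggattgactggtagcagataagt
Fos: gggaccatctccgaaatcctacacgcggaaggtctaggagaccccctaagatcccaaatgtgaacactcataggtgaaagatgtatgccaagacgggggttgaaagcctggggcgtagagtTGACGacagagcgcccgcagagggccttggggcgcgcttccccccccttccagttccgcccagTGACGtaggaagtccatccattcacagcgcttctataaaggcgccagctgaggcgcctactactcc
Fosl2: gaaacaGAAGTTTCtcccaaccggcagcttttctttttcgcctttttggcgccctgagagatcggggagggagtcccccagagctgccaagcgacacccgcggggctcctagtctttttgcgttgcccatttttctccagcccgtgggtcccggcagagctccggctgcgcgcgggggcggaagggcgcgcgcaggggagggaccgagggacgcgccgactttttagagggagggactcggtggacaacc
Atf3: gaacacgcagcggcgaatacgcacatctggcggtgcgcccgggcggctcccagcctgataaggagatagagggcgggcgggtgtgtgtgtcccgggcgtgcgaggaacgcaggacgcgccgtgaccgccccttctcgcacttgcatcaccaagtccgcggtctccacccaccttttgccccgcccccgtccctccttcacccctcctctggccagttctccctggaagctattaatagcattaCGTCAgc

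The Jun stretch held GAANNTTC once, beginning 128 bases before the start, and TGACATCA once, beginning 45 bases before it. The Fos stretch held TGACG at -129 and -66 and a TATAAA box at -33, which 12.4% of all promoter stretches held and no other member did. The Fosl2 stretch held GAANNTTC at -244, and the Atf3 stretch held the core on the other strand (CGTCA) at -7. The Fosl2 and Atf3 starts used here lie inside the gene spans given below, whereas those of Jun and Fos lie at the span ends. Among the 9 members with a promoter entry the core TGACG was found in 6, namely Atf3, Batf, Fos, Fosb, Junb and Maff, against 17.8% of the 32851 promoter stretches of the same length. TGACGTCA, which contains TGACG, was found in Maff (1.55% of all promoters), and TGACATCA in Jun and Maff (2.93%). GAANNTTC was found in Jun and Fosl2 (6.69%), and no member held TGANTCA (6.75%), TTCNNGAA (7.17%) or the CArG box (1.47%). Maff had 3 entries and counted with a match in any of them. The Jund start used here, chr8:70697739, lies upstream of the Jund gene span, which begins at chr8:70698949. The Jund stretch held none of these motifs, and the bases just before its gene span were not examined. A match describes the letters of this window and is not evidence of binding, and the GC box GGGCGG was found in 7 of the 9 (32.7%). At the other end of these transcripts, in the longest annotated 3′ UTR, the AU-rich pentamer ATTTA stood 4 times in 815 bases of Fos and 4 times in 1221 bases of Maff. Its density was above the median of 20870 genes in 8 of the 10 members, Fosb and Batf being below it. Of these 8, Fosl1 and Jund held the pentamer only 1 time each. The longer form TTATTTATT was found in 3 members, Fos, Fosl2 and Maff, and in 7.68% of all genes. AU-rich elements are known to shorten the life of immediate-early transcripts, and whether these matches do so was not tested.

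The WT library held 10866 barcodes with 56182065 UMIs (unique molecular identifiers, each standing for 1 captured transcript) and the Pac1-/- library 9495 barcodes with 60283285 UMIs. Only barcodes in which 500 genes or more were detected, with no more than 10% of UMIs from mitochondrial genes, were kept, leaving 8394 WT and 7087 Pac1-/- cells with a median of 4186.5 and 5577 UMIs. The libraries shared 29 barcode sequences, 15 of them among the cells used. Dusp2 gave 1419 UMIs in WT and 5 UMIs in Pac1-/- cells, so the targeted gene followed the labels. At least 2 of 10 ILC2 markers were seen in 99.3% of cells in the WT library and 99.1% in the Pac1-/- library. The summed markers of 9 other cell types ranged from 1.37 to 269 CPM (UMIs per 1e+06 UMIs of the library), with the erythroid sum at 76.2 CPM in WT and 269 CPM in Pac1-/- cells. Cd8a, Csf1r, S100a8 and C1qa were at 0 in at least 1 library.

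The 10 members together gave 1.41% of the UMIs of the WT library and 1.67% of those of the Pac1-/- library, and their levels spanned a wide range. Because 3′ counting captures each transcript at its tail, levels can be set side by side between genes to a first order. Junb (ENSMUSG00000052837, chr8:84974484-84978718, minus strand, GRCm38), the Jun protein that often restrains JUN, was the highest member, at 4219.6 CPM in WT (4202.4 to 4237) and 4877 CPM in Pac1-/- cells (4859 to 4895). Next came Fos (ENSMUSG00000021250, chr12:85473890-85477273, plus strand), the prototype of the family, at 2560.3 CPM and 2959.8 CPM. Fosb (ENSMUSG00000003545, chr7:19302696-19310051, minus strand), its close relative, stood at 2271 CPM and 2940.3 CPM. In Pac1-/- cells the counting intervals of Fos (2946 to 2974) and Fosb (2926 to 2954) overlapped, so the order of these neighbours was not resolved there even by counting.

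Jun (ENSMUSG00000052684, chr4:95049034-95052222, minus strand), the main partner of FOS, was at 1754 CPM in WT and 2328 CPM in Pac1-/- cells. Jund (ENSMUSG00000071076, chr8:70698949-70700616, plus strand), the Jun gene known for steady expression in resting cells, was at 1535 CPM and 2290.2 CPM. These 5 genes were thus the abundant ones in both libraries, and with the stricter filter Fosb (2861 CPM) stood above Fos (2814 CPM) in Pac1-/- cells. Atf3 (ENSMUSG00000026628, chr1:191170296-191218039, minus strand), a stress-induced repressor, followed at 880.1 CPM and 636 CPM, and Fosl2 (ENSMUSG00000029135, chr5:32135801-32157842, plus strand), which encodes FRA-2, at 739.6 CPM and 524 CPM. Maff (ENSMUSG00000042622, chr15:79346621-79359076, plus strand) was at 80.4 CPM and 75.6 CPM. Batf (ENSMUSG00000034266, chr12:85686669-85709087, plus strand), the partner of IRF4 at composite sites, was at 29.4 CPM and 31.2 CPM. Fosl1 (ENSMUSG00000024912, chr19:5447547-5455946, plus strand), which encodes FRA-1, was the lowest, with 614 UMIs or 11.2 CPM in WT and 277 UMIs or 4.75 CPM in Pac1-/- cells. Genes on the opposite strand overlap Fosl1 (Ccdc85b), Jun (Junos), Junb (Prdx2), Jund (Gm11175) and Atf3 (Gm24748). The use of strand in counting was not given in the sources used here. Whether reads of these overlapping genes entered the counts of the members was not tested. Ccdc85b had 1401 UMIs in WT and 2628 in Pac1-/- cells, more than Fosl1, and Junos, Prdx2 and Gm11175 stood at 1.39 to 115 CPM.

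**Figure D1:**
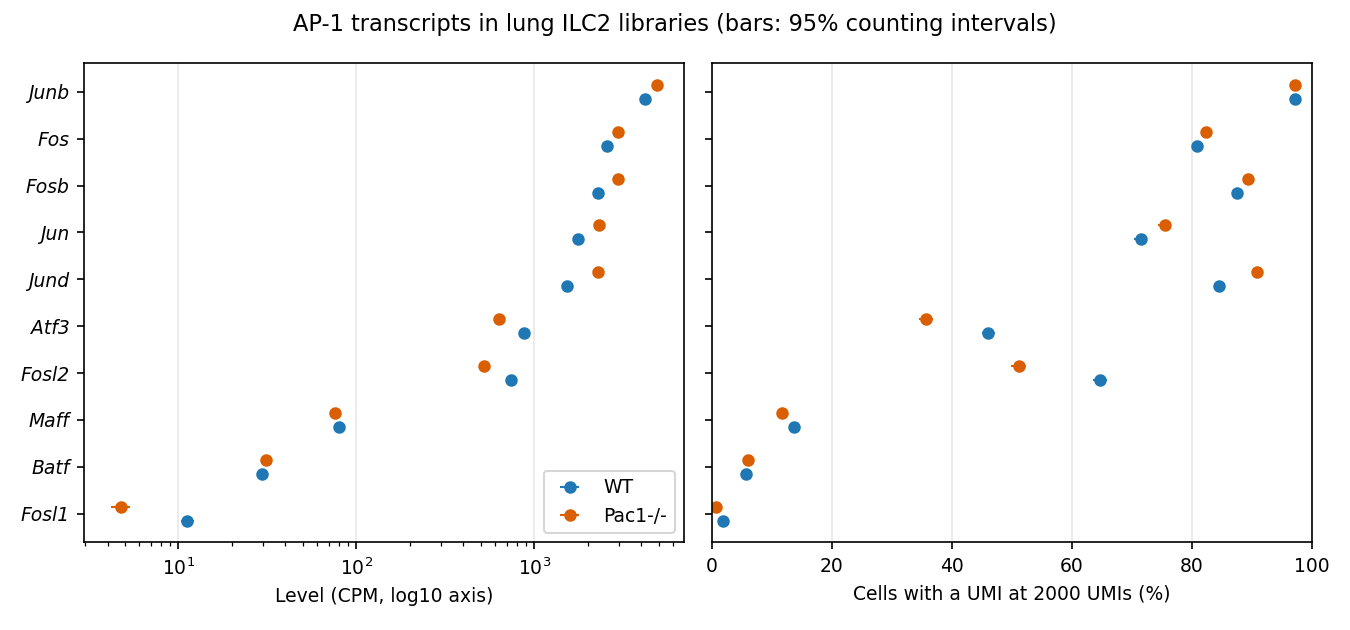
Left, level of each AP-1 gene in CPM on a log10 axis, and right, percentage of cells with at least 1 UMI after every cell was thinned to 2000 UMIs, with WT in blue, Pac1-/- in orange and 95% counting intervals as bars. Junb stood highest in both libraries (4219.6 and 4877 CPM), Fosl1 lowest (11.2 and 4.75 CPM), and Atf3 and Fosl2 showed the widest gaps in share of cells, with WT above Pac1-/-.

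The spread of the transcripts over cells was compared at an equal depth of 2000 randomly drawn UMIs per cell, which kept 7480 WT and 6470 Pac1-/- cells and removed 914 and 617 shallower ones. Junb was close to universal, with a UMI in 97.2% of cells of either library and a median of 7 UMIs per cell in WT and 8 in Pac1-/- cells. Fosb was detected in 87.5% of cells in the WT library and 89.4% in the Pac1-/- library, Jund in 84.6% and 90.9%, and Fos in 80.9% and 82.4%. Jun reached 71.5% (70.5 to 72.5, exact binomial interval) in the WT library and 75.5% (74.4 to 76.5) in the Pac1-/- library. Without thinning the Jun shares were 82.0% and 86.7%. Fosl2 and Atf3 went the other way. Fosl2 was detected in 64.7% (63.6 to 65.8) of cells in the WT library and 51.2% (49.9 to 52.4) in the Pac1-/- library, and Atf3 in 46.1% (3450 of 7480 cells) and 35.8%, with unthinned shares of 79.2% and 73.0% for Fosl2 and 59.6% and 51.7% for Atf3. Maff was found in 13.7% and 11.7%, Batf in 5.74% and 6.04% and Fosl1 in 1.86% and 0.665%, levels at which a cell with the gene had mostly 1 UMI. No cell type in the sort can be taken to lack these genes, so no background share from free RNA could be given. Atf3 was unevenly distributed for its level, since the 10% of cells with most Atf3 held 55.9% of its UMIs in WT and 63.7% in Pac1-/- cells, against 34.0% and 40.9% for Fosl2. The ratio of variance to mean over cells was 5.56 and 5.66 for Atf3 and 1.65 and 1.69 for Fosl2, where counting alone gives about 1. By this ratio, which also moves with the level, Fos (7.34 and 8.87) and Jun (6.71 and 7.25) stood highest, whereas Fosb, at nearly the level of Fos, was at 3.67 and 4.64.

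The comparison of Pac1-/- with WT ILC2s asked whether the family moved when PAC1 was lost. Between these libraries Fosl1, Fosl2 and Atf3 were lower and Jund was higher in Pac1-/- cells, while Fos, Fosb, Jun, Junb, Batf and Maff lay closer to the median gene than the limit given below. Ratios are given as log2 of Pac1-/- over WT CPM relative to the median of 12427 genes with at least 50 UMIs, whose own log2 ratio was 0.19, and the limit for higher or lower was set at 0.32 on this scale. Of the 10 members, 1 was past the limit above the median gene and 3 were past it below, where 21.7% of all genes compared were above and 24.5% below. Counts of this size are near the share over all genes and say nothing particular of the family. Relative to the median gene 5 members were higher and 5 lower, and as counted 6 were higher and 4 lower. The median of the members was -0.04. Beside these ratios, cells with at least 5 UMIs of the heat shock genes Hspa1a and Hspa1b were 34.0% of the WT and 46.8% of the Pac1-/- library, and the median mitochondrial share was 2.50% and 3.27%. The heat shock shares were taken without thinning and also depend on depth. Summed, Hspa1a and Hspa1b stood at 1495 CPM in WT and 2564 CPM in Pac1-/- cells.

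Among the Fos genes, Fosl2 had 40366 UMIs in WT and 30549 in Pac1-/- cells, a relative log2 ratio of -0.69 (-0.71 to -0.66). Fosl1 had the lowest ratio, -1.43 (-1.64 to -1.23), from few UMIs. Fos was at 0.02 (0.01 to 0.03) and Fosb at 0.19 (0.17 to 0.20). Among the Jun genes, Jund was at 0.39 (0.38 to 0.40), from 83789 and 133608 UMIs. Jun was at 0.22 (0.21 to 0.23) and Junb at 0.02 (0.01 to 0.03). Of the related factors, Atf3 was at -0.66 (-0.68 to -0.64), Maff at -0.28 (-0.34 to -0.21) and Batf at -0.11 (-0.20 to -0.01). The members nearest to the limit were Jund, just past it, and Maff, just inside, which passed it at -0.36 with cells thinned to 2000 UMIs. As counted, Fosb (0.37) and Jun (0.41) also passed it. With heat shock cells left out the Jun ratio was 0.04, while Jund (0.34), Fosl2 (-0.63) and Atf3 (-0.58) stayed past the limit.

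**Figure D2:**
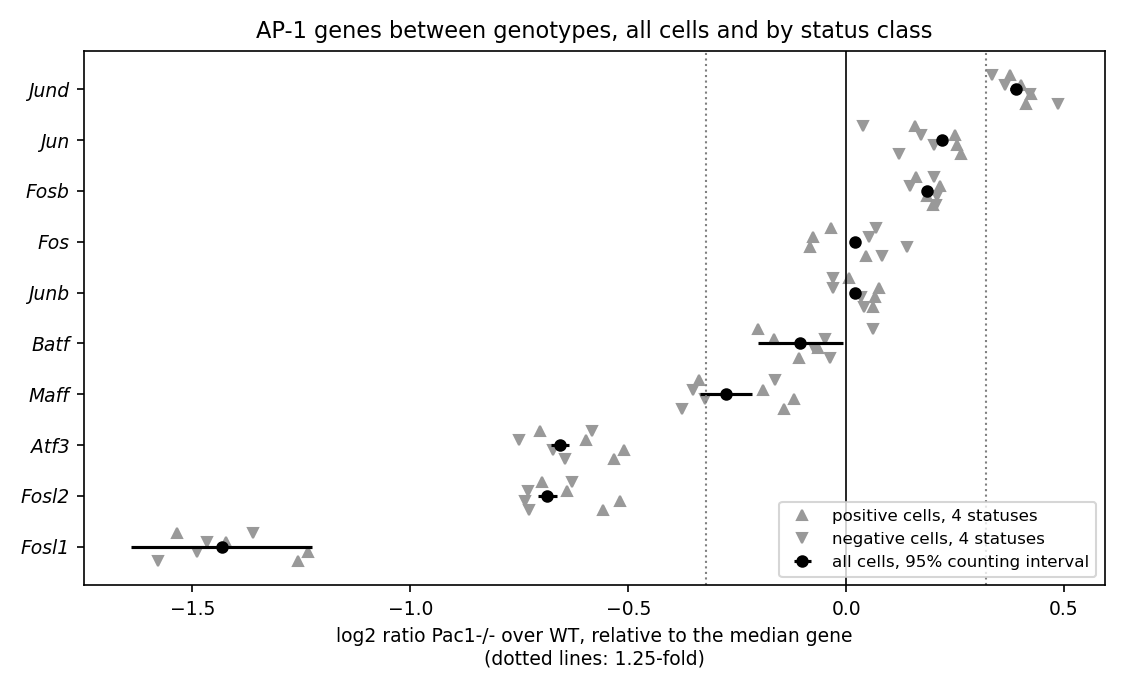
Log2 ratio of Pac1-/- over WT relative to the median gene for each AP-1 gene, in all cells (black points with 95% counting intervals) and within the positive (upward triangles) and negative (downward triangles) cells of the Il5, Il13, Il2 and heat shock statuses. Dotted lines mark the limit of 0.32. Fosl1, Fosl2 and Atf3 lay left of the lower line and Jund right of the upper line in every class.

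To see whether these ratios depended on the makeup of the libraries, they were taken again within cells split by status, that is, by at least 1 UMI of Il5, Il13 or Il2 or by at least 5 UMIs of Hspa1a plus Hspa1b. Il5-positive cells accounted for 53.1% of the WT library and 39.5% of the Pac1-/- library, so the mixture did differ. In all 8 classes Fosl1, Fosl2, Atf3 and Maff were lower and Fosb, Jun and Jund higher in Pac1-/- cells relative to the median gene of the class. The Fosl2 ratio ranged from -0.74 to -0.52 and the Atf3 ratio from -0.75 to -0.51. In Il5-positive cells Fosl2 was at 789 CPM in WT and 604 CPM in Pac1-/- cells, and in Il5-negative cells at 617 and 416 CPM. Atf3 was at 962 and 748 CPM in Il5-positive and at 679.8 and 485 CPM in Il5-negative cells. In CPM, Il5-positive Pac1-/- cells thus stood just below Il5-negative WT cells in Fosl2 and above them in Atf3. These levels are not set against the median gene. The 2 classes had median depths of 8063 and 3583 UMIs, and the part of depth in this order was not tested. The Jund ratio ranged from 0.34 to 0.49 and the Jun ratio from 0.04, in heat shock-negative cells, to 0.26, in Il5-positive cells. Fos was higher in 5 and lower in 3 classes, Junb higher in 6 and lower in 2, and Batf higher in 1 and lower in 7. As counted, Fos and Junb were higher in all 8 classes and Batf was higher in 7 and lower in 1. As counted, the Maff sign turned in the Il5- and Il13-positive cells.

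Among the status comparisons, heat shock status held the largest ratio of a well-counted member. Jun was higher in heat shock-positive than in heat shock-negative cells of both libraries, at 2235 against 1232 CPM in WT and 2834 against 1417 CPM in Pac1-/- cells. Relative to the median gene these were log2 ratios of 0.81 (0.79 to 0.83) and 0.93 (0.91 to 0.94). Hspa1a and Hspa1b encode inducible HSP70, a chaperone transcribed by HSF1 when proteins unfold. Jun was the 1 member past 1.5-fold higher in both libraries, where 0.388% of 11091 genes were, and 0 members were past 1.5-fold lower, where 0.505% were. Junb (0.24 and 0.28) and Jund (0.25 and 0.29) were next, Fos was at 0.22 and 0.12, Fosb at 0.13 and 0.09, and Fosl1 at 0.48 (0.24 to 0.72) and 0.30 (-0.08 to 0.69) from few UMIs. Fosl2 was lower, at -0.07 and -0.14, and at -0.20 and -0.32 with depths weighted alike. Heat shock-positive cells were deeper, with a median of 6804.5 against 3744.5 UMIs in WT and 7345 against 4770.0 in Pac1-/- cells, and the erythroid sum was 123 against 25.7 CPM in WT and 152 against 480.0 CPM in Pac1-/- cells. The epithelial sum was 25.2 against 85.2 CPM in WT and 38.2 against 160 CPM in Pac1-/- cells, and with cells holding 2 markers of another type left out the Jun ratio was 0.82 and 0.94. With the negative cells weighted to the depths of the positive ones, the Jun ratio was 0.77 in WT and 0.76 in Pac1-/- cells, while those of Fos became 0.06 and -0.02. Weighted in this way Junb was at 0.13 and 0.15, Jund at 0.14 and 0.16, Fosl1 at 0.24 and 0.19, and Fosb at 0.068 in WT and near 0 (-0.000551) in Pac1-/- cells. Over all 7 alternatives the Jun ratio stayed between 0.77 and 1.16 in WT and between 0.76 and 1.27 in Pac1-/- cells.

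The Jun level followed the number of heat shock transcripts in graded fashion, in bins chosen after the data were seen. Among cells thinned to 2000 UMIs, WT cells with 0, 1, 2 to 3, 4 to 7 and 8 or more Hspa1a plus Hspa1b UMIs had Jun at 1208, 1321, 1743, 2274 and 3802 CPM. The corresponding Pac1-/- values were 1339, 1607, 2019, 2462 and 4051 CPM. The level thus stood higher at every step, and the last bin (1026 WT and 1479 Pac1-/- cells) was 3.15-fold and 3.03-fold above the first (3964 and 2729 cells). Median depth before thinning was 4179, 4725, 7324, 6671 and 4441 UMIs in these WT bins. In the Pac1-/- bins it was 5251, 5668, 7724, 8124.5 and 6231 UMIs. Depth thus climbed with Jun over the first bins and fell again later, and its part in the Jun levels was not tested here. Junb went from 3682 to 5726 CPM in WT and from 4028 to 6534 CPM in Pac1-/- cells. Jund went from 1349 to 1914 CPM and from 1955 to 2888 CPM, though not upward at every step. Fos went from 2233 to 2589 CPM and from 2696 to 3423 CPM. Fosb went from 2112 to 2700 CPM and from 2703 to 3405 CPM. Fosl2 went from 712 to 618 CPM and from 514 to 440.5 CPM. Atf3 went from 784 to 831 CPM and from 573 to 571 CPM, so Fosl2 and Atf3 did not share the pattern of Jun. Among cells with no Il5 UMI the Jun bins ended 2.93-fold above the first in WT and also 2.93-fold above it in Pac1-/- cells. In these cells Atf3 went from 693 to 826 CPM in WT and from 500.2 to 558 CPM in Pac1-/- cells, though not upward at every step. Fosl2 went from 623 to 582 CPM and from 449 to 420.1 CPM.

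By Il5 status, the gene of the eosinophil growth factor IL-5, Atf3 and Fosl2 had the highest ratios of the well-counted members and Jun the lowest. Atf3 was at 962 CPM in Il5-positive and 679.8 CPM in Il5-negative WT cells and at 748 and 485 CPM in Pac1-/- cells. Relative to the median gene its log2 ratios were 0.65 (0.62 to 0.68) and 0.77 (0.73 to 0.80), which made it the 1 member past 1.5-fold higher in both libraries, where 2.79% of 11092 genes were. Thinned to 2000 UMIs the 1 member past it was Fosl2 instead (0.59 and 0.82), with Atf3 at 0.54 and 0.77. No member (0 of 10) was past 1.5-fold lower, where 0.478% of genes were. Fosl2 was past the limit in Pac1-/- cells only, at 0.51 (0.47 to 0.54) in WT and 0.68 (0.64 to 0.71) in Pac1-/- cells. Maff was at 0.33 and 0.57, Jund at 0.38 and 0.31, Fos at 0.27 and 0.24 and Junb at 0.23 and 0.25, and the sparse Fosl1 at 0.46 and 0.78. Fosb, at 0.11 and 0.099, and Batf, at 0.18 and 0.12, had low ratios, and as counted Fosb (-0.047 and -0.041) and Batf in Pac1-/- cells (-0.024) lay below 0. The Batf ratios moved with the setting, to 0.35 and 0.31 with cells thinned to 2000 UMIs and to 0.53 and 0.50 with heat shock cells left out. Jun was at -0.19 (-0.21 to -0.17) in WT and -0.04 (-0.06 to -0.03) in Pac1-/- cells, where it turned to 0.06 with heat shock cells left out. The Jun ratio was -0.29 and -0.18 with depths weighted alike, -0.36 and -0.20 with cells thinned to 2000 UMIs and -0.36 and -0.31 with the stricter filter. Il5-positive cells had a median of 5690.5 UMIs against 3583 in WT and 8063 against 4946 in Pac1-/- cells. Levels of Atf3 and Fosl2 also differed between cells grouped by depth, in which Il5 status was not held fixed. From the shallowest to the deepest of 5 equal groups of cells Atf3 went from 511 to 1007 CPM in WT and from 456 to 737 CPM in Pac1-/- cells, and Fosl2 from 578 to 793 CPM and from 422 to 573 CPM. With the negative cells weighted to the depths of the positive ones, the Il5 ratio of Atf3 was 0.24 and 0.44 and that of Fosl2 0.28 and 0.57, so no member passed 1.5-fold in both libraries. Weighted in this way Fos was at 0.011 and 0.13, Maff at 0.072 and 0.43, Junb at 0.078 and 0.15 and Fosl1 at 0.061 and 0.56. Summed erythroid markers were 91.6 CPM in Il5-positive and 38.4 CPM in Il5-negative WT cells and 139 and 446 CPM in Pac1-/- cells. Summed epithelial markers were 29.1 CPM in Il5-positive and 115 CPM in Il5-negative WT cells and 86.1 and 75.7 CPM in Pac1-/- cells, and the part of other cells in these ratios was tested only by leaving out cells with 2 markers of another type, after which Atf3 was at 0.65 and 0.77.

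When cells were instead ordered by the number of Il5 UMIs at a fixed depth of 2000, Jun and Fosl2 went in opposite directions. WT cells with 0, 1, 2, 3 to 4 and 5 or more Il5 UMIs had Jun at 1984, 1705, 1359, 1116 and 885 CPM. In Pac1-/- cells Jun was at 2331, 2135, 1595, 1714 and 972 CPM. Median depth before thinning was 4170, 4842, 6757, 7088 and 5322.5 UMIs in these WT bins. In the Pac1-/- bins it was 5590.5, 6834, 9874, 8561 and 6671 UMIs, and its part in these levels was not tested. Relative to the median gene, which was itself lower in the last bin by 0.36 and 0.44 (log2), Jun in the last bin (602 WT and 265 Pac1-/- cells) was at -0.80 (-0.89 to -0.71) and -0.82 (-0.95 to -0.70) against the first. Fosl2 stood at 611, 734, 818, 876 and 919 CPM in the same WT bins. In Pac1-/- cells Fosl2 stood at 420.1, 539, 727, 772 and 804 CPM. The Fosl2 value was thus higher at each step in both libraries, though counting intervals of the bins from 2 Il5 UMIs upward overlapped. Set against the median gene, the last Fosl2 bin lay 0.95 (0.86 to 1.05) and 1.38 (1.23 to 1.52) above the first. Atf3 was highest in the bin of 3 to 4 Il5 UMIs, at 974 CPM in WT and 1009 CPM in Pac1-/- cells, and the last bin was at 905 and 734 CPM. In WT the counting intervals of these bins (913 to 1038 and 852 to 961) overlapped, so their order was not resolved there. Fos was at 2399 and 1609 CPM in the first and last WT bins and at 2811 and 2109 CPM in Pac1-/- cells. Relative to the median gene the Fos difference in Pac1-/- cells was near 0 (0.03). In Pac1-/- cells with no Hspa1a or Hspa1b UMI it was -0.19 (-0.30 to -0.07). Among cells with no Hspa1a or Hspa1b UMI the last bin of Jun was at -0.62 in WT and -0.88 in Pac1-/- cells. That of Fosl2 was at 0.87 and 1.17. In these Pac1-/- cells Fosl2 was at 857 CPM with 3 to 4 Il5 UMIs and 778 CPM in the last bin, with overlapping counting intervals.

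**Figure D3:**
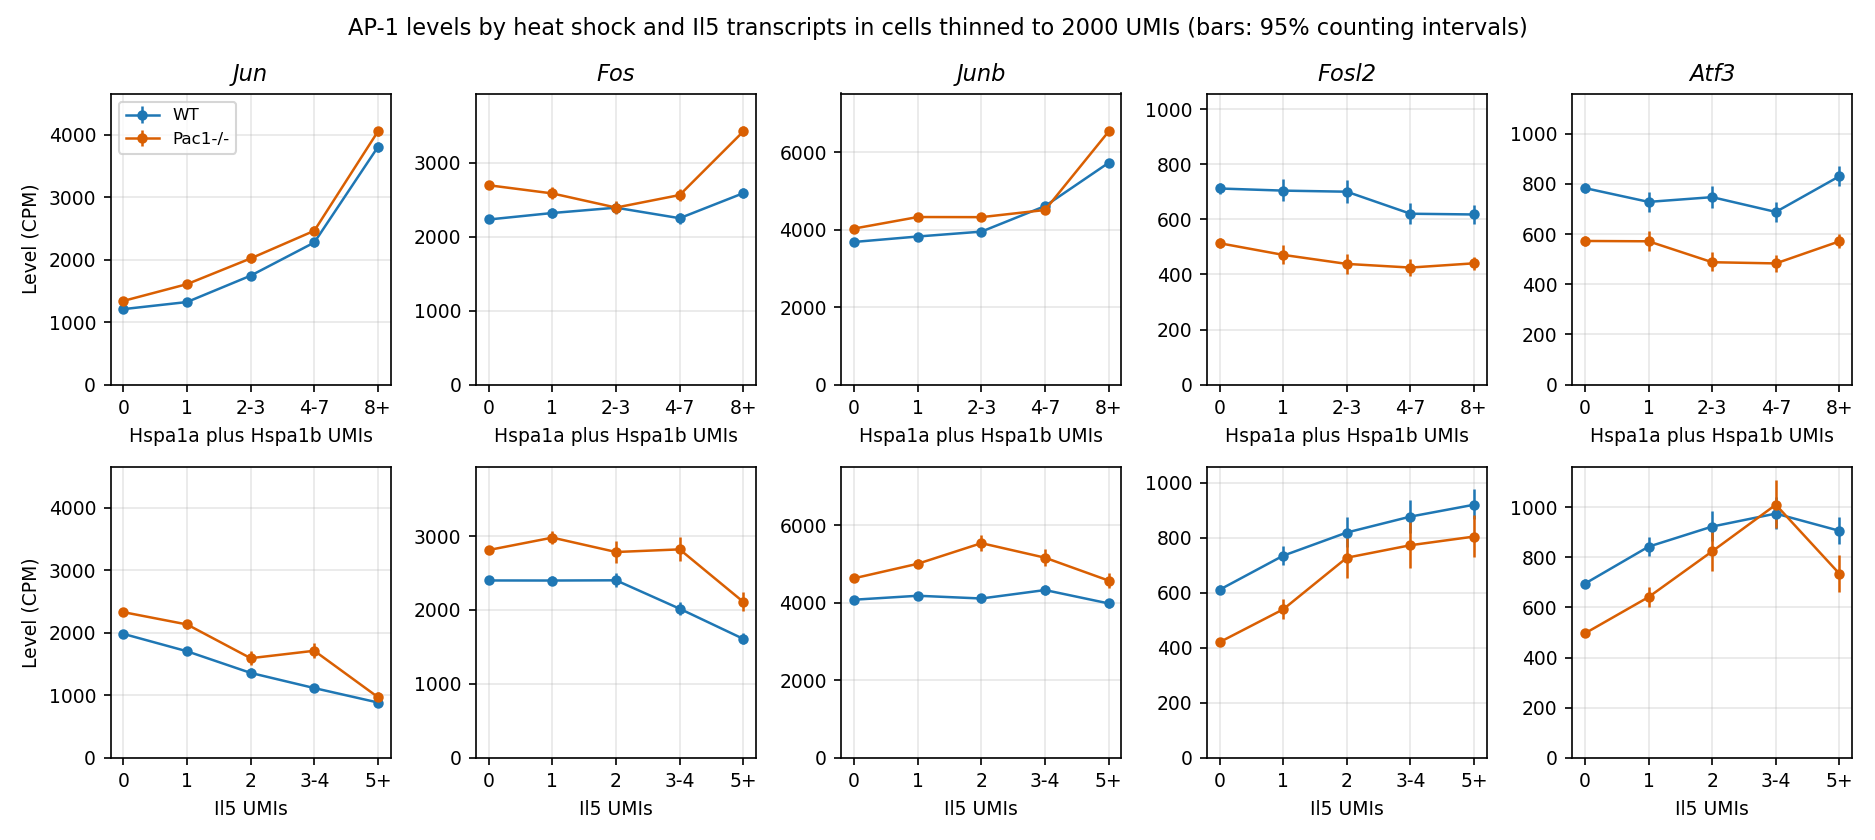
Level in CPM (linear axes from 0) of Jun, Fos, Junb, Fosl2 and Atf3 in cells thinned to 2000 UMIs, by the number of Hspa1a plus Hspa1b UMIs (upper row) and of Il5 UMIs (lower row), with WT in blue, Pac1-/- in orange and 95% counting intervals as bars. Jun climbed from 1208 to 3802 CPM (WT) along the heat shock axis and went down from 1984 to 885 CPM along the Il5 axis, whereas Fosl2 went up from 611 to 919 CPM along the Il5 axis.

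Taking both statuses at once gave the same ordering for Jun in each library. Jun was lowest in Il5-positive, heat shock-negative cells (1146 CPM in WT, 1343 CPM in Pac1-/-) and highest in Il5-negative, heat shock-positive cells (2987 and 3278 CPM). Cells with neither status were at 1392 and 1486 CPM, and cells with both at 2005 and 2568 CPM. Heat shock status thus went with more Jun whether or not Il5 was found, and Il5 status with less Jun on this scale. Fosl2 differed mainly by Il5 status, at 629 and 601 CPM in Il5-negative WT cells without and with heat shock status and at 807 and 776 CPM in Il5-positive ones. In Pac1-/- cells the corresponding Fosl2 values were 421, 412, 665 and 577 CPM. Atf3 was at 631 and 747 CPM in the Il5-negative and at 954 and 968 CPM in the Il5-positive WT classes, and at 469, 497, 800.2 and 725 CPM in Pac1-/- cells. The 4 classes differed in depth, from a median of 3278 to 10961 UMIs in WT and from 4333 to 13147 UMIs in Pac1-/- cells, and the part of depth in these levels was not tested beyond the weighted ratios above.

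By Il13 status, the gene of the cytokine that drives mucus production, no member (0 of 10) was past 1.5-fold higher in both libraries, where 0.631% of genes were, nor past 1.5-fold lower, where 0.379% were. Atf3 was again the highest of the well-counted members, at 1011 against 769 CPM in WT and 796 against 546 CPM in Pac1-/- cells, relative ratios of 0.49 (0.47 to 0.52) and 0.66 (0.64 to 0.69). Fosl2 was at 0.34 and 0.57 and Maff at 0.31 and 0.52. Fos was at 0.31 in WT and 0.095 in Pac1-/- cells. With depths weighted alike Fos was at 0.13 and -0.022, and as counted it was at -0.027 in Pac1-/- cells. Il13-positive cells were deeper, with a median of 7306 against 3809 UMIs in WT and 9190 against 5183 UMIs in Pac1-/- cells, and with depths weighted alike the ratios were 0.28 and 0.45 for Atf3, 0.21 and 0.43 for Fosl2 and 0.17 and 0.38 for Maff. The epithelial sum was 24.3 against 79.2 CPM in WT and 36.9 against 107 CPM in Pac1-/- cells, and the erythroid sum 82.9 against 70.5 CPM and 302 against 251 CPM. Batf, of interest for its known role at cytokine loci, was at 31.8 against 27.5 CPM in WT and 34.1 against 29.6 CPM in Pac1-/- cells, ratios of 0.31 (0.17 to 0.45) and 0.33 (0.19 to 0.46). With cells thinned to 2000 UMIs the Batf ratios were 0.71 and 0.74 and with the stricter filter 0.64 and 0.90, so that Batf, like the sparse Fosl1, was then past 1.5-fold in both libraries. Jun stood at -0.041 (-0.06 to -0.02) and 0.021 (0.00451 to 0.04).

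By Il2 status, the gene of the T cell growth factor, Fos led instead of Atf3 and Fosl2 in WT cells. Fos was at 3091 against 2277 CPM in WT and at 3334 against 2688 CPM in Pac1-/- cells, relative ratios of 0.45 (0.44 to 0.47) and 0.33 (0.31 to 0.34). Again 0 of the 10 members were past 1.5-fold higher in both libraries, where 0.0721% of genes were, or lower, where 0.37% were. Atf3 was at 0.30 and 0.46, Jun at 0.20 and 0.28 and Fosb at 0.14 and 0.22. Fosl2 was at 0.09 and 0.18, below its Il5 and Il13 ratios in both libraries. Batf was lower in Il2-positive cells, at -0.14 (-0.30 to 0.00855) and -0.26 (-0.40 to -0.12), and a Batf ratio below 0 was not kept under all alternatives. Il2-positive cells accounted for 19.9% of the WT and 25.5% of the Pac1-/- library and were deep, at a median of 7898 and 9714 UMIs against 3948 and 5125.5 in Il2-negative cells. These shares were taken without thinning, and the Pac1-/- library was the deeper one. The Il2 level was 65.9 CPM in WT and 71.1 CPM in Pac1-/- cells, a genotype ratio of -0.08 relative to the median gene. With depths weighted alike Fos was at 0.29 and 0.24, Atf3 at 0.11 and 0.29, Fosb at 0.075 and 0.16, and Fosl2 at -0.023 in WT and 0.056 in Pac1-/- cells. The epithelial sum was 23.4 against 70.3 CPM in WT and 34.2 against 116 CPM in Pac1-/- cells, and the erythroid sum 106 against 60.4 CPM and 179 against 335 CPM, and with cells holding 2 markers of another type left out the Fos ratio was 0.45 and 0.33.

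**Figure D4:**
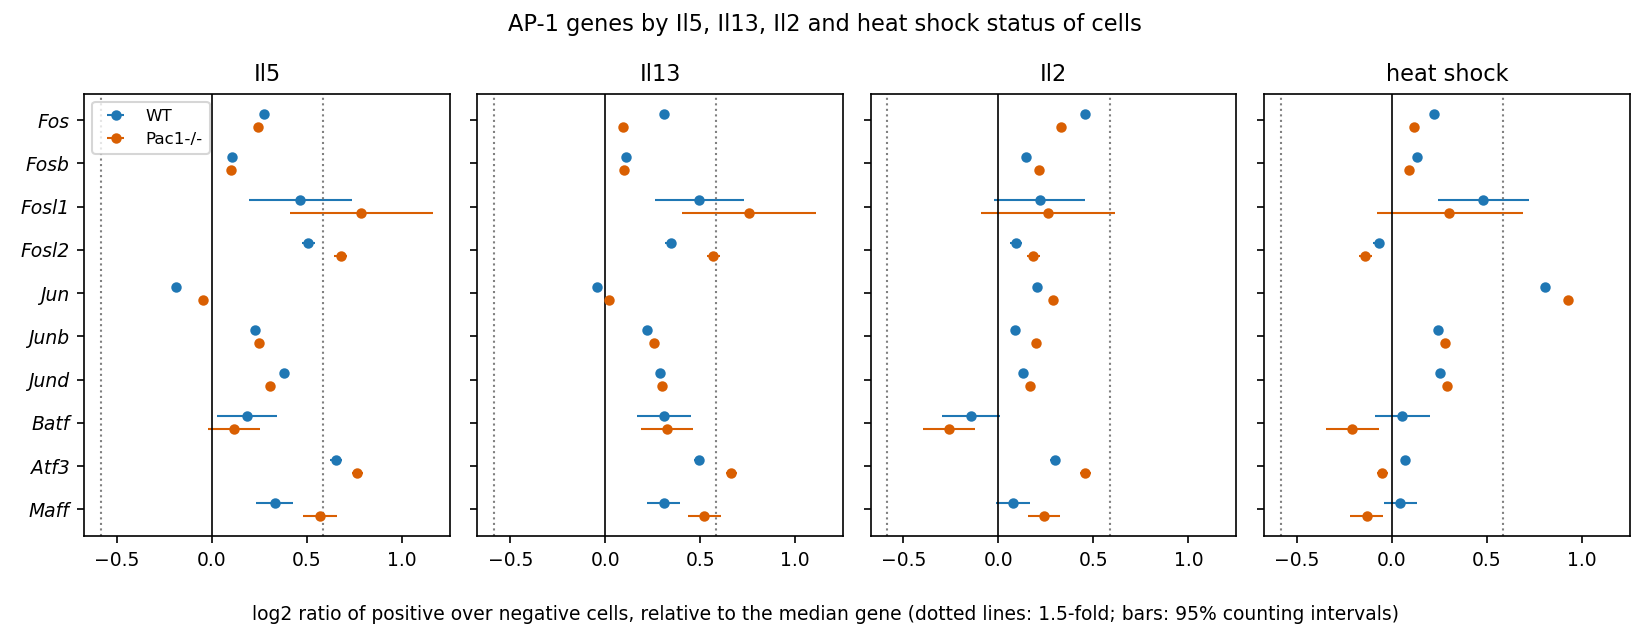
Log2 ratio of the level in positive over negative cells, relative to the median gene, for each AP-1 gene by Il5, Il13, Il2 and heat shock status, with WT in blue, Pac1-/- in orange, 95% counting intervals as bars and dotted lines at 1.5-fold. Jun lay past the upper line by heat shock status (0.81 and 0.93) and below 0 by Il5 status, and Atf3 past it by Il5 status (0.65 and 0.77).

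Which members were found in the same cells was described by Pearson's r of log2(UMI + 1) over the cells thinned to 2000 UMIs. These cells come from 1 library per genotype, are not replicates and share depth and handling, so r is a description without a p-value. Fos and Fosb were the closest pair, with r at 0.47 in WT and 0.54 in Pac1-/- cells. Fosb was found in 91.8% of WT cells with Fos and 69.3% of WT cells without it, and in 93.4% and 70.3% of Pac1-/- cells. Fos with Jun stood at 0.35 and 0.40 and Junb with Jund at 0.33 and 0.42. Fosl2 was closest to Junb (0.30 in both libraries) and Atf3 (0.24 and 0.26) and near 0 with Jun (-0.01 and 0.04). Jun was found in 72.3% of WT cells with and 70.0% of WT cells without Fosl2, and in 78.0% and 72.8% of Pac1-/- cells. Atf3 by contrast was found in 54.0% of WT cells with and 31.8% without Fosl2. For Fosl1 and Batf every r with another member was under 0.06, at levels too sparse to read. Thinning to 1000 UMIs brought the Fos and Fosb value to 0.37 and 0.46.

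**Figure D5:**
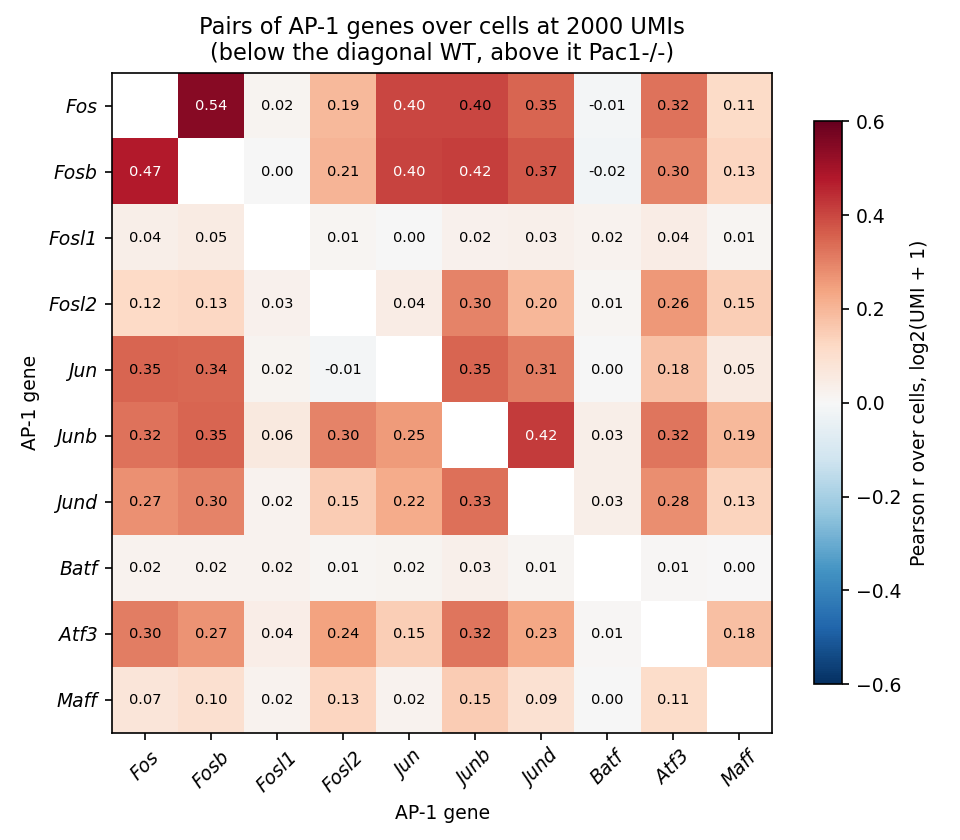
Pearson's r of log2(UMI + 1) between each pair of AP-1 genes over cells thinned to 2000 UMIs, with WT (7480 cells) below the diagonal and Pac1-/- (6470 cells) above it, colour giving r from -0.6 to 0.6. Fos and Fosb formed the closest pair (0.47 and 0.54), while Jun and Fosl2 were near 0 (-0.01 and 0.04).

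Across 4018 genes found in at least 5% of thinned cells of each library, the 5 genes most like each member by mean r over both libraries were listed for each. For Fos they were Fosb, Zfp36, an mRNA-decay factor that binds AU-rich elements (mean r 0.42), Nfkbia, the inhibitor of NF-kB (0.42), the MAP kinase phosphatase gene Dusp1 (0.40) and Klf6 (0.38). For Fosb they were Fos (0.51), Nfkbia (0.41), Zfp36 (0.39), Junb (0.38) and Tnfaip3 (0.38). Jun was the only member with a heat shock gene in its list, namely Hspa1b (0.36 in WT and 0.40 in Pac1-/- cells), followed by Fos, Fosb, Zfp36 and Dusp1. Junb was most like Nfkbia (0.49 and 0.54), then Nr4a1, an orphan nuclear receptor induced by receptor signals (0.42 and 0.42), Fosb, Jund and Zfp36. Jund was most like Nfkbia (0.34 and 0.43), then Junb, Fosb, Fos and Nr4a1. Fosl2 was most like Nr4a1 (0.35 and 0.38), then Rora, a nuclear receptor that ILC2s need for their development (0.33 and 0.35), Vps37b, Nr4a3 and Hilpda. Atf3 was most like Nfkbia (0.37 and 0.45), then Nr4a1, Pim1, Junb and Bhlhe40. Maff was most like Nfkbia (0.16 and 0.22), then Nr4a1, Junb, Vps37b and Hilpda. The lists of Fosl1 (Nfkbia, Ifrd1, Nr4a1, Nr4a3, Csf2) and Batf rested on mean r of 0.06 or less and are no finding.

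The surroundings of the family were read from 5 further lists, with the same limit of 0.32 and the shares of all genes given above (21.7% above and 24.5% below). Of 20 other bZIP genes compared, out of 23 listed, 2 were above and 5 below, with a median of -0.21. The lowest were Crem, a cAMP-responsive factor, at 451 CPM in WT and 222 CPM in Pac1-/- cells (-1.21), and Nfe2l2, which encodes the oxidative stress factor NRF2, at 50.1 and 28.6 CPM, and the highest were Atf5 (0.47, from 80 and 135 UMIs) and Cebpb (0.35). Of 24 other immediate-early genes 5 were above and 8 below, with a median of -0.08. Egr2 (-1.20) and Nr4a3 (-1.18) were lowest and Klf2, a factor of lymphocyte quiescence, highest at 96.5 CPM in WT and 264 CPM in Pac1-/- cells (1.27), followed by Rhob (0.51). Of 25 genes of the MAP kinase route to AP-1, 2 were above and 8 below, with a median of -0.16. Braf (-0.70) and Elk3 (-0.63) were lowest, and Mef2c (1.04, from 51 and 128 UMIs) and Map2k1 (0.34) highest.

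Of 18 genes known to hold AP-1 or BATF-IRF sites in lymphocytes, 0 were above and 14 below, with a median of -0.41. The lowest were Ccnd1, the gene of cyclin D1 (-1.38), and Irf4, the partner of BATF (-1.26, at 20.3 CPM in WT and 9.67 CPM in Pac1-/- cells), and the highest were Csf2, the gene of GM-CSF (0.20), and Vim (0.06). This list contains Il5 and Il13 and was drawn up with earlier results of these libraries known, so its direction is not independent evidence. Of 13 heat shock genes 5 were above and 2 below, with a median of 0.13. Hspa1a, at 503 CPM in WT and 1000.3 CPM in Pac1-/- cells (0.80), and Hspb1 (0.71) were highest, and the co-chaperone genes Bag3 (-1.03) and Dnajb4 (-0.39) lowest. As counted, an alternative chosen after seeing the data, 2 of the other bZIP genes were above the limit and 5 below, 8 and 6 of the other immediate-early genes, 3 and 4 of the MAP kinase route, 1 and 8 of the genes with AP-1 or BATF-IRF sites, and 7 and 1 of the heat shock genes. The medians on that scale were -0.023, 0.10, 0.033, -0.22 and 0.32, so those of the immediate-early genes and the MAP kinase route turned in sign.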

How the data were processed

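Lung ILC2s of 1 WT and 1 Pac1-/- pool were profiled with 10x Genomics 3′ chemistry (v3.1). The deposited matrices hold unnormalized UMI counts for every gene in each barcode, as the authors obtained them from Cell Ranger (6.1.1 in the submitters' processing notes, 4.0.0 in the file header) by alignment to mm10; the annotation release and the use of strand were not given in the sources used here. The barcodes are those that Cell Ranger kept as cells, and no doublets were removed for the values reported.

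Computation used Python 3.11.15 with matplotlib 3.10.9, pandas 2.3.3, scikit-learn 1.9.0, scipy 1.17.1 and numpy 2.4.6. UMIs were summed per library or class and divided by their total (CPM), with exact Poisson, conditional binomial (ratios) and Clopper-Pearson (shares) 95% intervals. Ratios were taken relative to the median gene with at least 50 UMIs, and called at a log2 of 0.32 between genotypes or past 1.5-fold by status in both libraries. The ratio step was tested on simulated sums with counting error only, so the test does not cover spread between cells, animals or libraries. Coordinates came from GENCODE M21 (GRCm38), promoters from RefSeq, in which 9 of the 10 members had an entry. The members, limits and lists were chosen with earlier results of these data known, and the bins of heat shock and Il5 UMIs were added after the data were seen. All 10 members were named, with the 2 highest and 2 lowest genes of each other list and the 5 genes most like each member, except that the genes most like Batf are not reported here. Alternatives were another scaling, filter, doublet removal at 0.8% per 1000 barcodes, depth treatment and status threshold.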

Additional observations from a re-analysis of the deposited data

Results flagged for a closer look

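Jun by Il13 status and Atf3 by heat shock status were marked because the ratio of positive over negative cells lay on opposite sides of the median gene in the 2 libraries, with counting intervals clear of it. For Jun the log2 ratio was -0.041 in WT and 0.021 in Pac1-/- cells, and for Atf3 it was 0.072 in WT and -0.049 in Pac1-/- cells. The differences between the libraries were not tested, since each genotype had 1 library. With the depths of the cells weighted alike, both ratios were below 0 in both libraries, at -0.10 and -0.08 for Jun and -0.16 and -0.27 for Atf3.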

How the results depend on the processing

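Between genotypes 8 of 10 member ratios kept their sign under all 8 alternatives, the exceptions being Batf and Junb, and as counted 3 members instead of 1 were past the limit above. Thinned to 2000 UMIs 4 members instead of 3 were past it below, with Maff added. The count of members past 1.5-fold higher by Il5 status (1) was 0 as counted and 0 with depths weighted alike, and 2 with the stricter filter (1000 to 2500 genes and under 5% mitochondrial UMIs), 2 without heat shock cells and 2 with stricter status thresholds. The count by Il13 status (0) was 2 after thinning to 2000 UMIs and 2 with the stricter filter. Thinned to 2000 UMIs the Il5 count was again 1, but for Fosl2 in place of Atf3. The count by heat shock status stayed at 1. Of 80 status ratios 58 kept their sign throughout, and of 40 ratios of last over first bins, whose alternatives were chosen after seeing the data, 34 did. The causes were not tested, apart from the scaling, which moves every ratio by the median gene. Fosl1 and Batf rest on the fewest UMIs, 277 to 1819 per library. No paired analysis was possible because each genotype had 1 library.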
